A study of Mus musculus with 6 samples.

Results

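Gap junction and pannexin channel genes were followed by 4 gene symbols, Gja1, Gja5, Gjc1 and Panx1, each paired by Ensembl ID with its expression value; all 4 were found among the 22246 genes with values. The study sequenced RNA from HL-1, an immortalised atrial muscle line of the mouse, labelled as C57BL/6 heart. It set 3 libraries from cells with a control shRNA, a short folded RNA that cells cut into a silencing RNA, against 3 libraries from cells with an shRNA directed at Smyd4, a SET and MYND domain gene. All 6 libraries share the line and carry an shRNA. The labels name no hairpin sequence, clone or culture, so p-values measure the spread between these libraries, which may be technical.

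Connexins are membrane proteins that assemble into hemichannels, and a hemichannel of one cell docks with that of its neighbour to form a gap junction channel through which ions and small molecules pass. In heart muscle these channels carry the action potential from cell to cell. Working atrial muscle is known for Cx43 and Cx40, encoded by Gja1 and Gja5, whereas Cx45, encoded by Gjc1, is known from the early heart tube and from nodal and conduction tissue. Pannexins form channels of a similar outline that do not usually dock, and the Panx1 channel is known for the release of ATP from cells.

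Values are in FPKM, a read level divided by gene length and library depth, so levels of different genes can be set side by side. Smyd4 mRNA itself stood at 12.5, 12.8 and 13.5 FPKM in the controls and at 12.6, 12.3 and 11.9 FPKM in the libraries labelled Smyd4 shRNA. Its groups overlapped, and the log2 change was -0.07 ± 0.04 (SE; limma, Benjamini-Hochberg adjusted p = 0.173; exact two-sided permutation test, p = 0.2). Smyd4 mRNA thus did not separate the groups, so the second group is called the labelled libraries, and every direction is relative to that label. Of 11 heart muscle markers, 9 had values, and Nppa and Sln had none. Of the 9, 6 stayed under 1 FPKM in all 6 libraries, among them Myl7, Myh6, Actc1 and Ryr2. Atp2a2 and Tnnt2 were above that level in all of them. Nppb stood at 1.73 to 2.58 FPKM in the controls and at 0.196 to 0.760 FPKM in the labelled libraries, and was called lower (limma, log2 change -1.46, adjusted p = 0.000961). Tnnt2 was called higher, from 7.11 to 11.7 FPKM (limma, log2 change 0.68, adjusted p = 6.22e-06). Atp2a2 was called lower, from 82.9 to 75.9 FPKM (limma, log2 change -0.13, adjusted p = 0.00462). Fibroblast markers summed to 239 to 246 FPKM in the control and 270.2 to 282 FPKM in the labelled libraries, and smooth muscle markers to 320.1 to 334 and 214 to 224 FPKM. Of 8 fibroblast markers 5 were tested, with Col1a1 and Col1a2 called higher, Dcn and Pdgfra lower and Col3a1 neither way, while Lum and Thy1 were at or near 0. Of 5 smooth muscle markers 3 were tested, with Acta2 and Tagln called lower and Smtn neither way, and Myh11 was near 0. All 6 endothelial markers with values stayed under 1 FPKM, with the highest sum, 0.700 FPKM, in labelled replicate 3. Macrophage markers summed to between 2.05 and 2.56 FPKM in 5 libraries and to 5.53 FPKM in labelled replicate 3, where Lyz2 stood at 3.74 FPKM and Adgre1 and Ptprc were near 0. These lists moved with the groups or with 1 library, and their part in the results was not tested. In bulk RNA, fewer cells of a type and less RNA per cell cannot be told apart.

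Gja1 did not pass the test, Gjc1 fell and Panx1 rose in the labelled libraries, and Gja5 was at or near 0 in every library. Gja1 was by far the most abundant, at a mean of 146 FPKM in the control and 145 FPKM in the labelled libraries. Panx1 and Gjc1 lay close to each other in the controls and moved apart in the labelled libraries, by changes of opposite sign. Of the 3 members tested, 1 was higher and 1 lower; among all 11325 tested genes 25.1% were called higher and 23.3% lower, so a share of calls of this size is the background of the series.

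**Figure D1:**
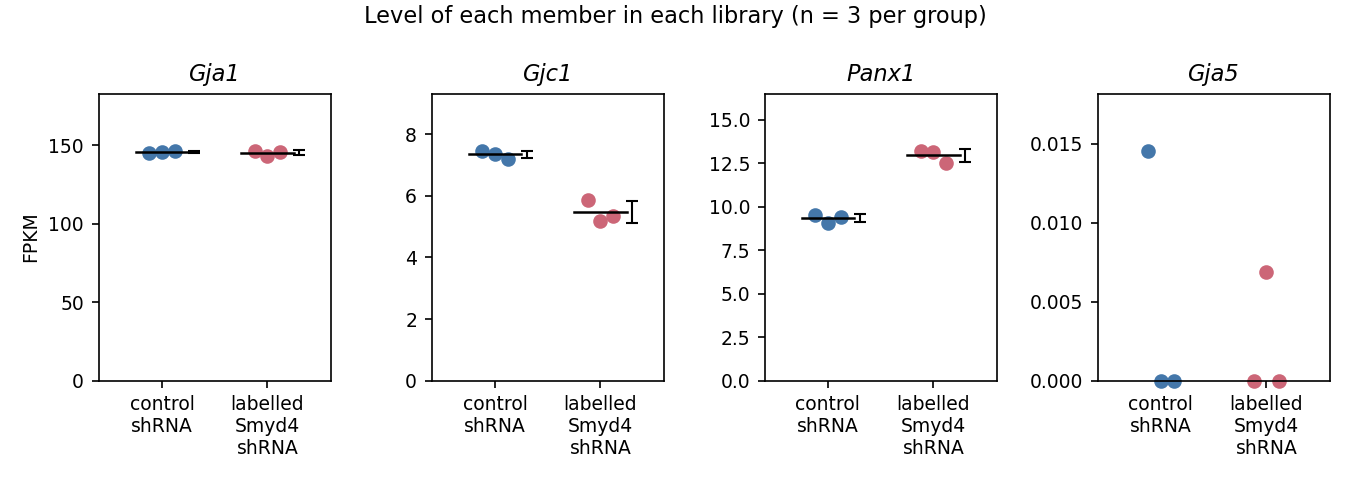
FPKM (linear axis from 0, a scale per panel) of the 4 members in each library, with points for libraries, horizontal lines for the mean of 3 libraries and whiskers for the SD, not drawn for Gja5. Gja1 groups overlap near 145 FPKM, Gjc1 falls from 7.35 to 5.46 FPKM, Panx1 rises from 9.35 to 13.0 FPKM and Gja5 is at 0 in 4 of the 6 libraries.

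Gja1 (ENSMUSG00000050953, chromosome 10, 56377330 to 56402513, plus strand, GRCm38) encodes Cx43, the main connexin of working heart muscle, also made by fibroblasts and smooth muscle. It stood at 144.9, 145.9 and 146.3 FPKM in the controls, and the labelled libraries read 146.4, 143.3 and 145.7 FPKM. The groups overlapped, and the labelled libraries held both the highest and the lowest value. The means were 146 ± 0.723 and 145 ± 1.61 FPKM (SD, n = 3 each). The log2 change was -0.0055 ± 0.02 (SE; limma, adjusted p = 0.857; exact two-sided permutation test, p = 0.7). Its 95% confidence interval ran from -3.84% to 3.21% of the control level. Of all tested genes, 97.8% had a larger absolute change. At least 9368 to 11878 reads per library stood behind these values, and the gene ranked between 325 and 350 by FPKM among all genes of a library.

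Gjc1 (ENSMUSG00000034520, chromosome 11, 102799579 to 102819700, minus strand) encodes Cx45. It stood at 7.46, 7.37 and 7.21 FPKM in the controls and at 5.86, 5.17 and 5.36 FPKM in the labelled libraries. Every labelled library lay below every control library; groups that do not overlap, in either direction, were seen in 57.8% of all tested genes. The mean fell from 7.35 ± 0.125 to 5.46 ± 0.355 FPKM (SD, n = 3 each) (a change of -25.7%). The log2 change was -0.40 ± 0.05 (SE; limma, adjusted p = 0.000357), and the exact two-sided permutation test gave p = 0.1, the smallest p this design allows. The 95% confidence interval of the change ran from -29.9% to -17.8%, on the scale with the pseudocount of 0.5 FPKM. The values rest on 555 to 915 reads per library. The authors' deposited table lists the gene with a log2 fold change of -0.42 and an adjusted p of 4.43e-08.

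Gja5 (ENSMUSG00000057123, chromosome 3, 96904693 to 97077416, plus strand) encodes Cx40, known from atrial muscle, the fast conduction system and arterial endothelium. It was listed at 0.0145 FPKM in control replicate 1, at 0.00689 FPKM in labelled replicate 2 and at 0 in the other libraries. These are 2 reads and 1 read in all. A count of 0 allows up to 3 reads, which correspond to 0.0200 to 0.0252 FPKM depending on the library, for counting error only, so a difference between the groups was not detectable at this depth. The gene fell below the filter of a mean of 1 FPKM and was not tested. Its annotated span overlaps Gpr89 on the opposite strand.

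Panx1 (ENSMUSG00000031934, chromosome 9, 15005161 to 15045478, minus strand) encodes pannexin channels of many cell types. It stood at 9.54, 9.08 and 9.43 FPKM in the controls, and the labelled libraries read 13.2, 13.1 and 12.5 FPKM. No labelled library overlapped the controls, and groups likewise did not overlap, in either direction, in 57.8% of all tested genes. The mean rose from 9.35 ± 0.239 to 13.0 ± 0.380 FPKM (SD, n = 3 each), 38.6% higher. The log2 change was 0.45 ± 0.04 (SE; limma, adjusted p = 2.98e-05), with p = 0.1 in the exact two-sided permutation test. The 95% confidence interval ran from 28.9% to 44.7% above control. Between 645 and 1035 reads per library were counted. The authors' deposited table gives Panx1 a log2 fold change of 0.46 and an adjusted p of 1.06e-10. Of all tested genes, 10.6% had a larger absolute change than Panx1 and 12.9% a larger one than Gjc1.

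Without labelled replicate 3, the library with the highest macrophage markers, the log2 change was -0.0083 for Gja1 (limma, adjusted p = 0.824), -0.39 for Gjc1 (0.00155) and 0.47 for Panx1 (7.09e-05). Lyz2 was also higher in labelled replicates 1 and 2 (0.544 and 0.781 FPKM) than in the controls (0.187 to 0.297 FPKM). Leaving out replicate 3 thus does not remove that group difference.

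The 250 bases before the RefSeq start site are shown for the 3 members with an entry, and Gjc1 had none. Whether the letters bear on the level of these genes was not tested. All are on GRCm38.p6 and written 5′ to 3′ on the strand of the gene, with motif matches in capitals. The windows are chr10:56377050-56377299 for Gja1, chr3:97032152-97032401 for Gja5 and chr9:15045479-15045728 for Panx1. The Gja5 window lies within the annotated span given above for that gene, so its RefSeq start differs from the start of that span.
Gja1: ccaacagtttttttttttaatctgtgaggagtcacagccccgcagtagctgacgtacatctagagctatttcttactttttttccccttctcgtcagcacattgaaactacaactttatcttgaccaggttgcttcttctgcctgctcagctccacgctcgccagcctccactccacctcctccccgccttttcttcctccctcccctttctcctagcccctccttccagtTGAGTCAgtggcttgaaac
Gja5: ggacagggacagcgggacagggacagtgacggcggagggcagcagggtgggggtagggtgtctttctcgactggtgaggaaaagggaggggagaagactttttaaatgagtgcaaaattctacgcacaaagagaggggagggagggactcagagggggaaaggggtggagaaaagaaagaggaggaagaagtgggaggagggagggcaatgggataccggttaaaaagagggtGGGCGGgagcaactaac
Panx1: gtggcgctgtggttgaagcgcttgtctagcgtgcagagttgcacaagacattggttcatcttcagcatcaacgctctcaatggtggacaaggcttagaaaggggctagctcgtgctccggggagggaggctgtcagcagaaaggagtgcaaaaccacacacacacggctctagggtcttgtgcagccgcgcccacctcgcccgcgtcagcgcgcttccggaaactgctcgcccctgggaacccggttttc
The letters searched on both strands were TGANTCA (bound by AP-1, the dimer that includes Jun and Fos), GGGCGG (the GC box of Sp1 and Sp3), TATAAA (the TATA box), AGGTGTNA (T-box factors) and TNAAGTG (Nkx2-5). The Gja1 window held 1 match to TGANTCA, its first base 19 bases before the start (position -19), a match that 6.75% of 32851 such windows hold. The Gja5 window held 1 GGGCGG at position -17, found in 32.7% of windows. None of these letters were in the Panx1 window, and TATAAA, AGGTGTNA and TNAAGTG, which 12.4%, 2.68% and 10.1% of windows hold, were in none of the 3. No searched motif overlapped another in these windows. CpG dinucleotides numbered 6 for Gja1, 7 for Gja5 and 17 for Panx1, against a median of 6 over all windows.

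The members were then compared with one another within each library. Gja1 stood 19.8 ± 0.431 times above Gjc1 in the control and 26.6 ± 1.45 times above it in the labelled libraries (ratio of FPKM, SD, n = 3 each). Panx1 stood at 1.27 ± 0.0384 times the Gjc1 level in the control and 2.38 ± 0.146 times in the labelled libraries. The log2 change of Panx1 exceeded that of Gjc1 by 0.85 and that of Gja1 by 0.46, and the change of Gjc1 lay 0.39 below that of Gja1. In each of the 3 pairs the 6 log2 ratios separated by group. Each exact two-sided permutation test gave p = 0.1 (0.1 after Benjamini-Hochberg adjustment over the 3 pairs), the smallest value possible. Gjc1 and Panx1 had each separated by group, in opposite directions, while Gja1 hardly moved. The ratio tests thus restate the single-gene values and add no separate evidence. The order of mean levels was Gja1, Panx1, Gjc1 and Gja5 in both groups. Neighbours in that order did not overlap in any library.

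Among the 3 connexin members, Gja1 made up 95.1%, 95.2% and 95.3% of the summed FPKM in the controls and 96.2%, 96.5% and 96.5% in the labelled libraries. The share of Gjc1 was 4.80% ± 0.0988 and 3.63% ± 0.195 (SD, n = 3 each). The Gja1 share was 1.18 percentage points higher and the Gjc1 share 1.18 points lower, each with p = 0.1 in the exact two-sided permutation test. With Gja5 at or near 0, these shares are complements of each other, so their tests give the same result. Gja1 itself did not pass the limma test, at means of 146 and 145 FPKM. Over all 11 connexin genes with values, the Gja1 share was 92.3% ± 0.121 and 92.7% ± 0.356, a difference of 0.455 points whose groups overlapped (exact two-sided permutation test, p = 0.2).

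Of 19 other connexin and pannexin genes, 9 had values. Those described here, Gjb5, Gja3, Gja4, Gja6, Gjc3 and Panx2, stayed under 1 FPKM in all libraries and were not tested. Gjb5, a connexin known from skin, lay between 0.389 and 0.589 FPKM in the controls and between 0.437 and 0.534 FPKM in the labelled libraries, so its groups overlapped. Gja3, Gja4, which encodes the endothelial Cx37, Gja6, Gjc3 and Panx2 never exceeded 0.0860 FPKM. Panx2, the other pannexin with values, was at 0 in 2 of the 6 libraries and at most at 0.0403 FPKM, whereas Panx1 stayed above 9 FPKM in all of them.

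**Figure D2:**
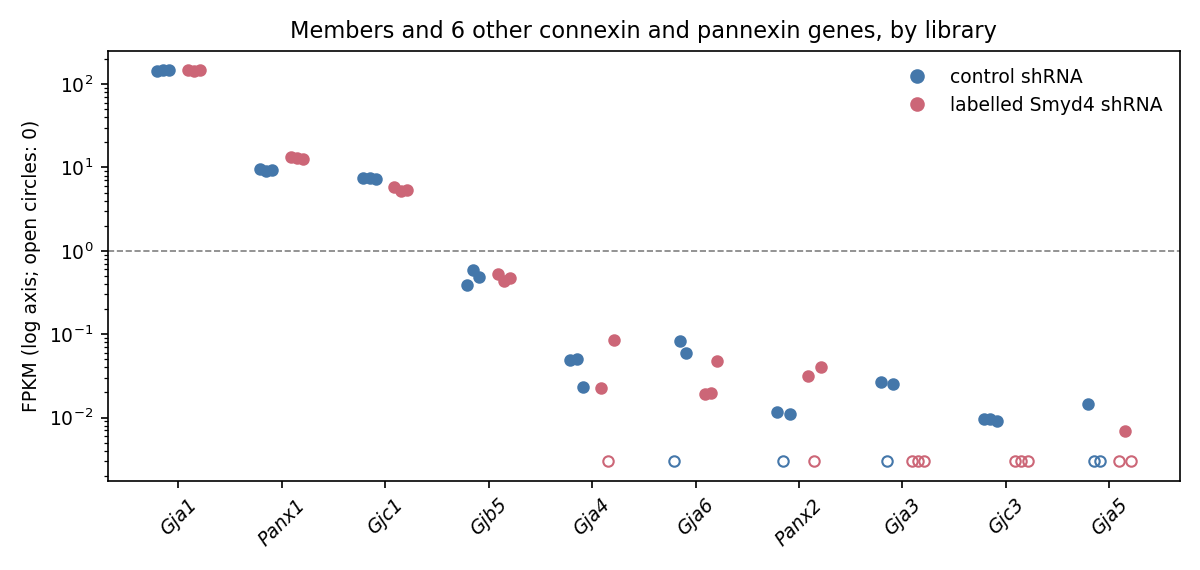
FPKM (log axis) of the 4 members and 6 other connexin and pannexin genes, ordered by mean, with a point per library and open circles at the bottom for values of 0; the dashed line marks 1 FPKM. Gja1, Panx1 and Gjc1 lie above the line in all 6 libraries, and the other genes, Gja5 included, below it.

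Genes for proteins that anchor connexins at the membrane and join cells at the intercalated disc, the junction of heart muscle cells, were called in both directions at a share near that of all tested genes. Of 21 such genes, 20 had values and 14 were tested. 5 were called higher, 3 lower and 6 neither way. The median log2 change was 0.04, against 0.02 over all tested genes, 48.3% of which were called in either direction. Jup, the plakoglobin shared by desmosomes and adherens junctions, rose from 13.6 ± 0.207 to 21.6 ± 0.917 FPKM (limma, adjusted p = 4.47e-06). Cav1, the caveolin that coats caveolae, rose from 95.2 to 115 FPKM (limma, adjusted p = 7.77e-05), and the membrane adaptor Ank2 from 1.05 to 1.71 FPKM (0.00101). In the other direction Dbn1, the actin-binding drebrin that has been found with Cx43, fell from 20.9 ± 0.573 to 7.73 ± 0.592 FPKM (log2 change -1.38; limma, adjusted p = 6.09e-07). Des, the muscle intermediate filament desmin, fell from 137 to 102 FPKM (limma, adjusted p = 3.44e-06). Ank3, the ankyrin of sodium channels at the disc, fell from 1.30 to 0.952 FPKM (limma, adjusted p = 0.0148), a call lost without control replicate 2 (0.0524) and after quantile normalization (0.0649). Ctnna1, the alpha-catenin of adherens junctions, had the highest mean among those that did not pass, with 132 and 134 FPKM. The desmosomal cadherin Dsg2 and the plaque protein Dsp of cardiac discs stayed under 1 FPKM in all libraries.

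Kinases, phosphatases and sorting proteins that act on connexins were called in both directions as well. Of 25 genes, 24 were tested: 6 were called higher, 7 lower and 11 neither way, with a median log2 change of -0.0058; over all tested genes 48.3% were called, 25.1% higher and 23.3% lower. Src, the tyrosine kinase known to phosphorylate Cx43, fell from 25.4 ± 0.941 to 16.6 ± 0.386 FPKM (log2 change -0.60; limma, adjusted p = 5.2e-06). Prkca, a protein kinase C that also phosphorylates Cx43, rose from 8.64 ± 0.267 to 12.4 ± 0.381 FPKM (log2 change 0.50; limma, adjusted p = 2.28e-05), and its relative Prkce from 2.34 to 3.03 FPKM (0.00363). Prkaca, the catalytic subunit of protein kinase A, fell from 65.6 to 54.5 FPKM (limma, adjusted p = 0.000224) and Ezr, an actin linker that brings protein kinase A to Cx43, from 97.8 to 88.5 FPKM (0.00225). Eps15, an endocytic adaptor, rose from 17.2 to 19.9 FPKM (limma, adjusted p = 0.0006). The calmodulin gene Calm2 had the highest mean of those that did not pass, 354 and 342 FPKM. After quantile normalization Calm2 was called lower (limma, adjusted p = 0.00193).

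Transcription factors known to act on cardiac connexin genes numbered 13, of which 9 were tested: 3 were called higher, 3 lower and 3 neither way (median log2 change 0.05), beside 48.3% called over all tested genes. Nkx2-5, a homeobox factor of heart muscle, stood at 2.85, 3.74 and 4.14 FPKM in the controls and at 7.03, 8.23 and 7.79 FPKM in the labelled libraries. The groups were apart, as were those of 57.8% of all tested genes in either direction. The log2 change of Nkx2-5 was 1.02 ± 0.12 (SE; limma, adjusted p = 0.000215). Irx3, known in mouse to raise Gja5 and repress Gja1 in the fast conduction system, fell from 5.14 ± 0.406 to 1.79 ± 0.197 FPKM (log2 change -1.30; limma, adjusted p = 6.85e-06). Jun fell from 50.04 to 37.2 FPKM (limma, adjusted p = 8.88e-06). Whether AP-1 acts on Gja1, whose window holds the AP-1 letters, was not tested. The repressor Tbx3 fell from 2.34 to 1.87 FPKM (limma, adjusted p = 0.0111), a call lost after quantile normalization (0.0516). Gata4 went from 8.09 to 8.88 FPKM (limma, adjusted p = 0.0314), and this call was lost in 7 of 12 alternatives, the highest adjusted p being 0.101 without control replicate 2. Sp3 did not pass, at 21.8 and 23.6 FPKM (limma, adjusted p = 0.0646), but passed without labelled replicate 1 (0.0160). The authors' deposited table lists Sp3 with an adjusted p of 0.0430. Tbx5, an activator of Gja5 in mouse, was at 0 in all control libraries and below 1 FPKM in all labelled libraries.

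**Figure D3:**
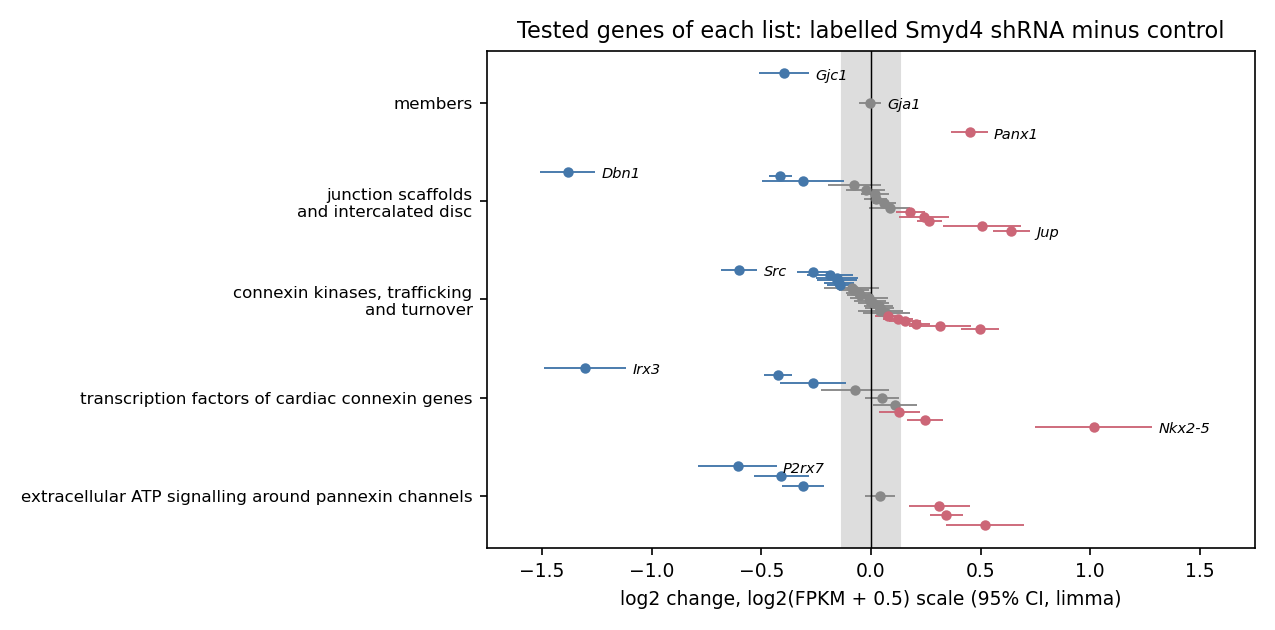
Change of every tested gene of the members and of 4 lists (log2 scale, labelled minus control; points are limma estimates and whiskers 95% confidence intervals; red called higher, blue called lower, grey not called). The grey band marks the median absolute change of all tested genes, 0.13; Gja1 lies inside it, and Gjc1 and Panx1 outside it.

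Genes that act on pannexin channels, or that receive or remove the ATP they release, were followed for Panx1. Of 20 such genes, 18 had values and 7 were tested: 3 were called higher, 3 lower and 1 neither way (median log2 change 0.04), beside the 48.3% called over all tested genes. The ATP-gated channel P2rx7, known to act together with Panx1, fell from 2.13 ± 0.134 to 1.23 ± 0.0741 FPKM (log2 change -0.61; limma, adjusted p = 0.000394). P2rx4, of the same family, fell from 5.61 to 4.44 FPKM (limma, adjusted p = 0.00057) and the adenosine receptor Adora2b from 6.99 to 5.13 FPKM (0.000523). P2ry2, a G protein coupled receptor for ATP and UTP, rose from 3.30 ± 0.366 to 4.93 ± 0.256 FPKM (log2 change 0.52; limma, adjusted p = 0.000928). P2rx3, a channel known from sensory neurons, rose from 38.05 to 48.4 FPKM (limma, adjusted p = 7.22e-05), but it overlaps Ssrp1 on the opposite strand, and no source used here says whether reads were counted by strand. The remaining 11 genes lay under the filter, among them Nt5e, the ecto-enzyme that makes adenosine, at 0.769 ± 0.0229 and 0.249 ± 0.0285 FPKM.

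The genes whose profile over the 6 libraries was most like that of a member were found among 7518 others by the root mean square difference of centred log2 values, as a description without a test. For Gja1 these were Vcp, an ATPase that unfolds proteins, at a difference of 0.0086, and Tmod3, a cap of actin filaments, at 0.0096. For Gjc1 they were the kinase gene Plk3 (0.020) and Tmem184b (0.026), with log2 changes of -0.43 and -0.36. For Panx1 they were the mitochondrial genes Mipep, a peptidase (0.0098), and Acat1, a thiolase (0.025), with log2 changes of 0.45 and 0.43. The median difference over all candidates was 0.079 for Gja1, 0.223 for Gjc1 and 0.222 for Panx1.

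**Figure D4:**
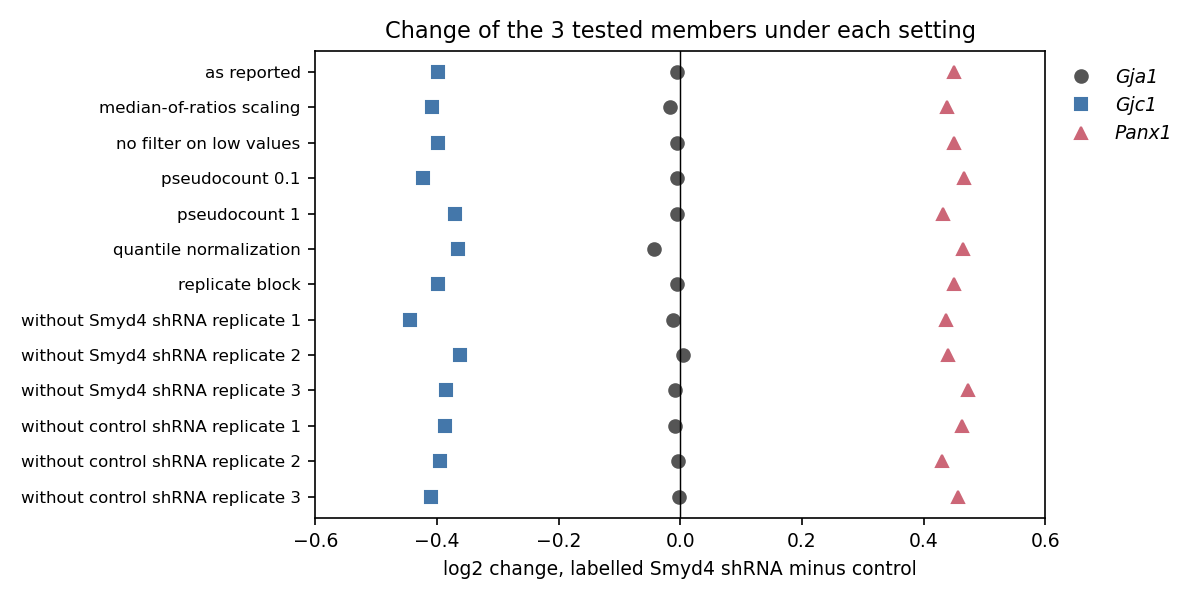
Change of Gja1, Gjc1 and Panx1 (log2 scale, labelled minus control) as reported and under each of 12 other settings, 1 point per gene and setting. Gjc1 stays between -0.45 and -0.36 and Panx1 between 0.43 and 0.47, while Gja1 lies between -0.04 and 0.0036.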

How the data were processed

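RNA sequencing values of 6 HL-1 libraries, 3 per group, were analysed; titles gave each library its group and number. TopHat2 2.0.9, Bowtie2 2.0.6 and the build GRCm38 are named in the submitters' processing notes. No source used here gives the counter, annotation, strand setting or test. The authors deposited FPKM for 22246 genes. Their deposited comparison table holds 5616 genes with a normalized signal, a log2 fold change, a p-value and an adjusted p-value. FPKM times gene length over that signal is 1 constant, 41.6, so both files share 1 scaling per library. All signals (100%) were whole multiples of 1 step per library within 0.0001. Reads were recovered this way as depth only: the 5616 genes held 12661076 to 16134204 reads per library. For Gja1 the smallest length giving whole reads was used, so its reads are lower bounds; the Gja5 length came from GENCODE M21.

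Symbols matched for 22134 genes. Groups were compared with limma 3.58.1 (R 4.3.3, trend) on log2(FPKM + 0.5) for genes averaging 1 FPKM or more, with Benjamini-Hochberg adjustment over all tested genes at 0.05; this scale understates changes of low genes. Single values were also tested by exact two-sided permutation. On simulated data of 11325 genes, 11125 of them unchanged, 94.0% of genes changed by 0.6 and 52.2% of those changed by 0.3 (log2) were called. In the real data 48.3% of tested genes were called, so these rates do not give the sensitivity there. Of the 58 tested members and list genes, 24 overlap another gene of the table, and their values may hold its reads. Promoter sequences are from RefSeq, GRCm38.p6, which held 3 of the 4 members. Other coordinates are from the authors' table or GENCODE M21.

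Members, lists and tests were chosen with earlier results of these data known. Of each list of more than 5 tested genes, the text names up to 3 called genes per direction by adjusted p and the highest gene not called; some of these are not reported here. Others (Dsg2, Dsp, Tbx5, Nt5e, and the markers) were named after their values were seen. Alternatives were other pseudocounts (0.1 and 1), no filter, 2 other scalings, a replicate block and leaving out each library. The edgeR and DESeq2 alternatives were not run.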

Additional observations from a re-analysis of the deposited data

How the results depend on the processing

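Gjc1 stayed lower and Panx1 higher, each past the threshold, in all 12 alternatives, and Smyd4 also kept its direction and side. Leaving out each library in turn, the log2 change ran from -0.45 to -0.36 for Gjc1, from 0.43 to 0.47 for Panx1, from -0.012 to 0.0036 for Gja1, from -0.10 to -0.04 for Smyd4 and from -0.014 to 0.0066 for Gja5. The sign of Gja1 turned without labelled replicate 2 (0.0036), on a change that passed in no alternative (limma, adjusted p from 0.0933 to 0.942); the cause was not tested. Gja5 went from -0.0072 to -0.033 with a pseudocount of 0.1, which rests on 3 reads in all. Genes called ranged from 4536 to 4993 when each library was left out in turn, against 5474 as reported. Over all 12 alternatives the range was 4536 to 5628. The split of higher and lower calls was 2650 and 2787 with median-of-ratios scaling and 3163 and 2465 after quantile normalization, against 2839 and 2635. Without a filter, the scaffold list gained Cxadr and Xirp1 and had 5 lower calls, and the ATP list had 6; fewer reads stand behind such genes. Of 492 fits of the other 41 named genes and markers, 479 kept direction and side, 10 lost the call and 3 gained it. The replicate numbers did not pair the libraries (correlations of same-numbered deviations from -0.032 to 0.018 across genes), and with the replicate block 5141 genes were called, with Gjc1 at an adjusted p of 0.00112 and Panx1 at 0.000309 (limma). The edgeR and DESeq2 alternatives were not run, and no count test stands beside limma here.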
